A study of Mus musculus with 12 samples.

Results

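The genes described here are 41 genes of the defence against lipid peroxidation, which act in antioxidant, glutathione and iron metabolism. They were chosen by symbol. Each symbol matched 1 gene identifier of the 50563 in the count table, and 41 of 41 passed the filter on low counts that left 15688 genes to test. mRNA expression was measured by RNA-Seq in the cortex of 12 E4FAD mice, which carry human APOE4 in place of mouse Apoe on both alleles (APOE4+/+) and 1 copy of the 5xFAD transgene set (5FAD-/+), which a Thy1 promoter drives in neurons. The 7 CTRL mice (2 aged 12 months and 5 aged 14 months) were gavaged with vehicle, and the 5 DPAn-6 mice (2 aged 12 months and 3 aged 14 months) received 700 mg/kg of DPAn-6, the n-6 docosapentaenoic acid, once a day for 3 weeks. Each mouse gave 1 library. All mice, vehicle-treated mice included, were also given the antioxidants alpha-tocopherol and palmitoyl ascorbic acid, so the CTRL group is not free of antioxidant treatment. Both groups held both sexes, and the sample labels give no sex for single mice.

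DPAn-6 is a highly unsaturated fatty acid, and the double bonds of such fatty acids are the sites at which iron and oxygen radicals start chains of lipid peroxidation. Cells hold this in check with glutathione, which peroxidases use to reduce peroxides, with the parallel thioredoxin and peroxiredoxin cycle, and by locking iron into ferritin. Many of these genes are induced by the transcription factor Nrf2 (encoded by Nfe2l2), which Keap1 marks for degradation until electrophiles or oxidants modify Keap1. In the brain these enzymes are shared unevenly among neurons, astrocytes, microglia and the cells of vessels and meninges.

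Nrf2 binds antioxidant response elements, whose core can be written TGACNNNGC (N is any base). This core was searched on both strands from 250 bases before to 50 bases after the RefSeq start sites (GRCm38.p6). It was found in 8 of the 35 genes that had a promoter in the table (22.9%) and in 14.0% of 27025 genes. The 8 were Nfe2l2, Srxn1, Gstm5, Gclm, Prdx1, Mgst1, Txnrd1 and Sod1. No promoter was used for Hmox1, Gclc, Gsr, Gsta4, Prdx6 and Sod3. The stretches of the 3 genes that also had an unadjusted p below 0.05 between the groups are shown, with the core in capitals and 10 bases on each side. The first lies at chr2:75704885-75704913 on the minus strand, the second at chr4:116685456-116685484 and the third at chr3:107895802-107895830, both on the plus strand. In Prdx1 the capitals are the core read on the opposite strand. The Gstm5 stretch spans the annotated gene start (107895821), and the other two lie upstream of their genes. A match of letters is a description of the promoter and does not show that Nrf2 binds there.
Nfe2l2 promoter: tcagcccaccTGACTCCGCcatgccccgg
Prdx1 promoter: cagggaaagcGCTGAGTCAtcccccgtag
Gstm5 promoter: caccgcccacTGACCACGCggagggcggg

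Ferritin and transferrin receptor mRNAs carry iron-responsive elements, hairpins through which iron sets their translation and stability, so for these genes the mRNA level is one of several layers of control. Annotated untranslated regions were searched for a CAGTGN loop closed by 5 paired bases, with a C, the bulged base of the element, just 5′ of these pairs. The element was found in the 5′UTR of 31 of 21901 genes (0.142%) and in the 3′UTR of 128 (0.584%). Among the 41 genes it was in the 5′UTR of Fth1 (chr19:9982731-9982760, plus strand) and Ftl1 (chr7:45459779-45459808, minus strand) and 4 times in the 3′UTR of Tfrc, of which 1 is shown (chr16:32631218-32631247, plus strand). The loop is in capitals.
Fth1 5′UTR: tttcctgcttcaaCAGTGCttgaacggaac
Ftl1 5′UTR: tgtcttgcttcaaCAGTGTttgaacggaac
Tfrc 3′UTR: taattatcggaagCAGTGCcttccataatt

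The CTRL libraries held 15339098 to 19500154 counts on genes, median 17449553, and the DPAn-6 libraries 15208803 to 26520251, median 18400132. Values per mouse are log2 CPM, the log2 of counts scaled to a common library total (CPM) after adding 0.5 to each count. The libraries held the markers of neurons (11200 to 14900 CPM summed), astrocytes (6570 to 11400 CPM) and oligodendrocytes (5220 to 7000 CPM). Over all genes tested, 51.3% were lower in DPAn-6 and 1.55% had an edgeR adjusted p below 0.05 (called). Of the microglial markers 13 of 13 were lower in DPAn-6 (median log2 fold change −0.47, 4 called), as were 10 of 10 of leptomeningeal fibroblasts (−0.64, 4 called), 8 of 8 of mural cells (−0.27, 1 called) and 6 of 6 of choroid plexus (−2.56, 0 called). Astrocyte markers were lower in 8 of 10 (−0.15, 0 called, 4 of the lower with an unadjusted p below 0.05), and oligodendrocyte markers were lower in 2 of 10 (0.27, 0 called, 6 of the higher with an unadjusted p below 0.05). At this threshold 11 of 13 microglial, 8 of 10 fibroblast, 4 of 8 mural and 5 of 6 choroid plexus markers were lower. Over all genes 9.02% were lower and 5.51% higher at it. The summed choroid plexus markers spanned 14.3 to 1700 CPM in CTRL and 9.47 to 26.6 CPM in DPAn-6. In bulk tissue, fewer cells of a type and less RNA per cell cannot be told apart.

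1 library stood apart. CTRL replicate 3 was the lowest of the 12 mice in 22 of the 41 genes (53.7%, against 35.1% of all genes tested) and the highest in 8 (26.7% of all genes). Its deviation from the mean of all mice had a Spearman correlation of −0.61 with transcript GC content and 0.30 with transcript length across 15660 genes, which share this library and are not independent replicates. Its GC correlation was the farthest from 0 of the 12 libraries, where the others ran from −0.42 to 0.46, while DPAn-6 replicates 1 and 5 had larger length correlations (−0.31 and −0.36). The genes in which it was lowest had a median transcript GC content of 53.4% and 2122 exon bases, and those in which it was highest 48.0% and 3752 exon bases. Ftl1 was 1.37 lower in it than in the mean of the other CTRL mice on the log2 scale, Prdx2 was 1.22 lower, and Gpx3 was 2.01 higher. The median SD of the 41 genes within CTRL was 0.26 log2 CPM with this mouse and 0.13 without it, beside 0.13 within DPAn-6. Values without it are therefore given beside the results it moved.

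**Figure D1:**
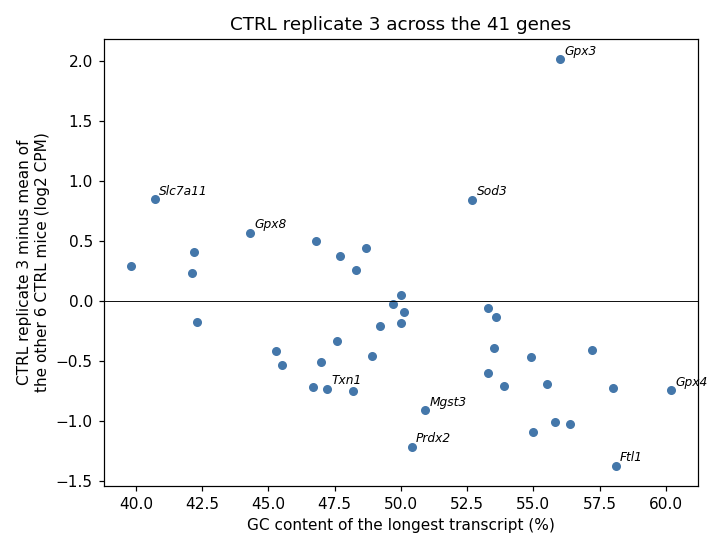
CTRL replicate 3 in the 41 genes. Each point is a gene, placed by the GC content of its longest transcript (%) and by the log2 CPM of CTRL replicate 3 minus the mean of the other 6 CTRL mice; Ftl1 lies at −1.37, Prdx2 at −1.22 and Gpx3 at 2.01.

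Levels were compared between genes per length, as TPM. Fth1, the heavy chain of ferritin, had 2590 ± 264 TPM in CTRL (SD, n = 7) and 2550 ± 129 TPM in DPAn-6 (SD, n = 5), the highest of the 41 genes. The glutathione transferases Gstm1 (446 ± 58.5 TPM in CTRL, SD, n = 7) and Gstm5 (342 ± 21.2 TPM) came next, followed by Prdx5, Mgst3 and Prdx6 with 253 ± 49.7, 240 ± 45.3 and 225 ± 24.3 TPM, whose SDs overlapped. At the other end, Gss, Gpx7, Aifm2, Gpx8 and Nqo1 had 7.66 to 9.99 TPM in CTRL, and their SDs overlapped. Slc7a11 had 22.3 ± 7.66 TPM and Nfe2l2 had 37.0 ± 8.41 TPM in CTRL.

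Between the groups, none of the 41 genes passed an adjusted p of 0.05 by edgeR, where 1.55% of all genes tested did. An unadjusted p below 0.05 was reached by 6 of the 41 (14.6%), and by 14.5% of all genes. Of these 6, Slc7a11, Gpx8, Nfe2l2, Txnip and Gstm5 were lower in DPAn-6 and Prdx1 was higher, where 9.02% of all genes were lower and 5.51% higher at this threshold. The estimate was below 0 for 26 genes and above 0 for 15 (63.4% lower, against 51.3% of all genes), and the median log2 fold change was −0.05 beside −0.0047 over all genes. Fold changes use library totals scaled by TMM (trimmed mean of M-values, which brings the bulk of genes to a common level), and log2 CPM uses plain totals, so their signs can differ near 0. On plain totals edgeR gave 23 estimates below 0, a median of −0.02 for the 41 genes and 0.0187 over all genes. Without CTRL replicate 3, 28 estimates were below 0. No gene had groups that did not overlap, where 3.22% of all genes did. For 33 of the 41 the 95% interval of the log2 fold change lay within 0.5 of 0. Without CTRL replicate 3, 2 genes had an edgeR adjusted p below 0.05 (Slc7a11 and Mgst3, where 6.10% of all genes passed) and 9 an unadjusted p below 0.05 (22.0%, against 23.1% of all genes).

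**Figure D2:**
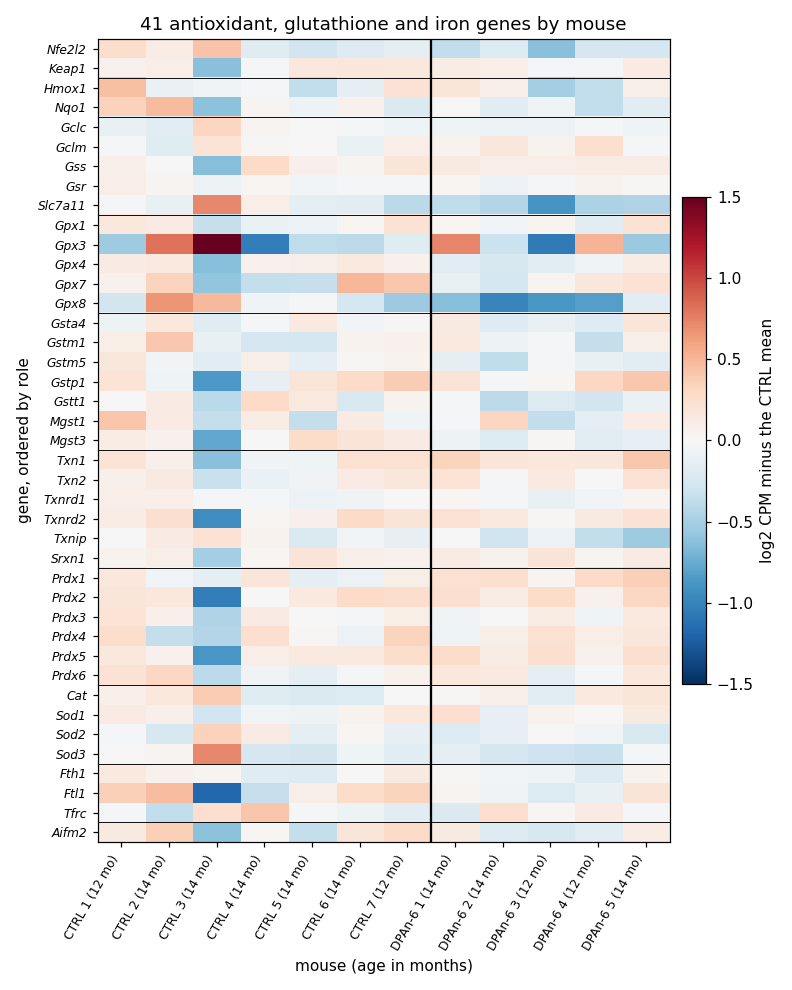
Expression of the 41 genes in each mouse. Columns are the 7 CTRL and 5 DPAn-6 mice with their age, rows are genes ordered by role with lines between roles, and colour is log2 CPM minus the CTRL mean, cut at 1.5 in either direction; CTRL replicate 3 is lowest in 22 genes, and the row of Slc7a11 is under that mean in each of the 5 DPAn-6 mice.

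**Figure D3:**
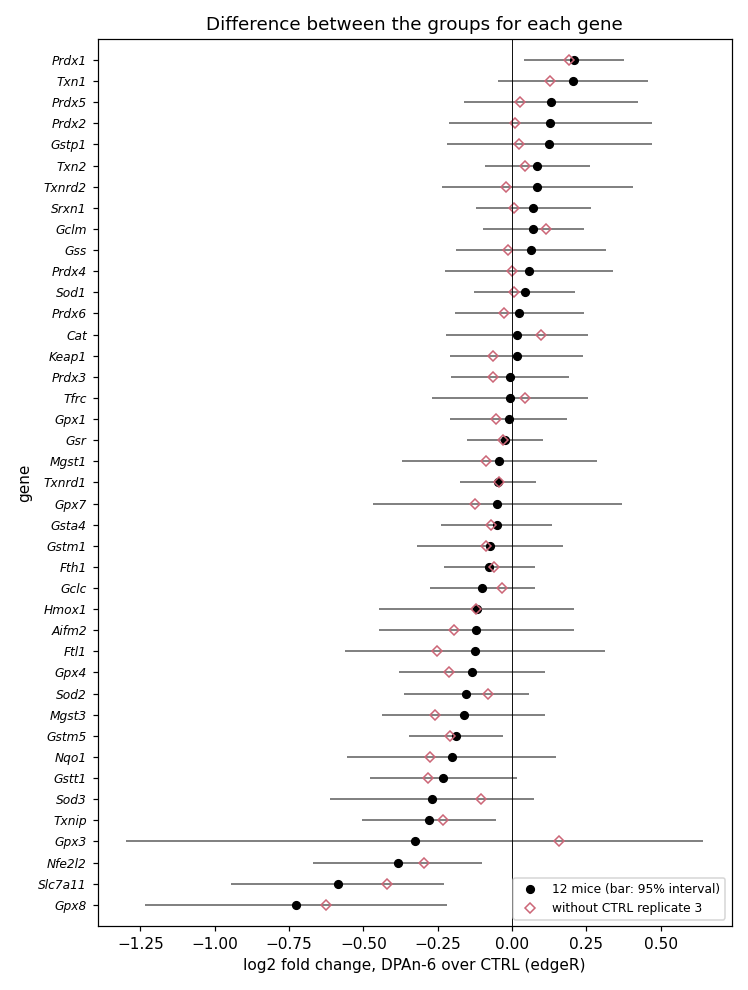
Log2 fold change of each gene, DPAn-6 over CTRL, from edgeR. Black points with 95% intervals use 12 mice and open diamonds leave out CTRL replicate 3; Gpx8 and Slc7a11 lie lowest at −0.73 and −0.59, and the interval of Gpx3 is the widest.

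Nfe2l2 (ENSMUSG00000015839; chromosome 2, 75675513 to 75704641), the transcription factor itself, ranged from 4.66 to 5.37 log2 CPM in CTRL, with a median of 4.80. The DPAn-6 mice had 4.57, 4.75, 4.31, 4.69 and 4.68. All 5 were below the CTRL mean, and 2 of them, the first and the third listed, were below every CTRL mouse. On the log2 scale the fold change was −0.39 (standard error 0.13, unadjusted p = 0.0114, edgeR adjusted p = 0.179, two-sided exact permutation p = 0.0341). The 3 highest CTRL mice, CTRL replicate 3 included, stood between 5.06 and 5.37 and the other 4 between 4.66 and 4.80. Without CTRL replicate 3 the log2 fold change was −0.30 (exact permutation p = 0.0390), with Ttr, a choroid plexus gene, as covariate −0.34 (unadjusted p = 0.0900), and in the 14-month mice alone −0.30 (unadjusted p = 0.112). Ttr itself was lower in DPAn-6 (log2 fold change −6.01), so fits with it as covariate cannot fully separate Ttr from the group. Its inhibitor Keap1 (chromosome 9, 21229730 to 21239361) averaged 6.30 ± 0.28 log2 CPM among CTRL mice and 6.36 ± 0.07 among DPAn-6 mice (SD, n = 7 and n = 5). The log2 fold change of Keap1 was 0.02, with an interval of −0.21 to 0.24 and an edgeR adjusted p of 0.970, and −0.06 without CTRL replicate 3.

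Over both ages together, the inducible Nrf2 targets Nqo1 and Hmox1 did not have an unadjusted p below 0.05. Nqo1, a quinone reductase, averaged 1.78 ± 0.36 log2 CPM among CTRL mice and 1.63 ± 0.14 among DPAn-6 mice (SD, n = 7 and n = 5). It rested on 34 to 81 counts in a mouse, and the log2 fold change was −0.20 (95% interval −0.55 to 0.15, edgeR adjusted p = 0.643), or −0.28 without CTRL replicate 3 (unadjusted p = 0.0701). Hmox1, haem oxygenase 1, which frees iron from haem, averaged 3.18 ± 0.26 and 3.08 ± 0.32 log2 CPM in the same order (SD, n = 7 and n = 5). Its log2 fold change over all mice was −0.12 (95% interval −0.45 to 0.21, edgeR adjusted p = 0.793).

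The difference in Hmox1 (chromosome 8, 75093621 to 75100589) had opposite signs at the 2 ages. At 12 months the 2 CTRL mice had 3.64 and 3.40 log2 CPM and the 2 DPAn-6 mice 2.67 and 2.81. At 14 months the 5 CTRL mice had 2.82 to 3.16 and the DPAn-6 mice 3.36, 3.27 and 3.27. The groups did not overlap at either age, and the order was opposite, with DPAn-6 below CTRL at 12 months and above it at 14 months. DPAn-6 differed from CTRL by a log2 fold change of −0.79 at 12 months and 0.22 at 14 months, a difference of −1.01 (standard error 0.21, unadjusted p = 0.000322, edgeR adjusted p = 0.376). Hmox1 was the single gene of the 41 with an unadjusted interaction p below 0.05, where 4.26% of all genes were, and the single gene with opposite differences without overlap, where 1.13% were. In 15 alternatives, among them each mouse left out in turn, the difference stayed between −1.14 and −0.83. Leaving out a 12-month mouse leaves 1 mouse of its group at that age, so these fits are given as effect sizes only. Expression of Xist, the X-inactivation RNA of female cells, was 9.65 and 9.42 log2 CPM in the 12-month CTRL mice and 2.07 and 1.48 in the 12-month DPAn-6 mice, while the 3 DPAn-6 mice of 14 months had 9.15 to 9.60. In DPAn-6, age and Xist level cannot be told apart, and at 12 months neither can group and Xist level. With Xist as covariate the difference of Hmox1 between the ages was −0.83 (unadjusted p = 0.015).

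**Figure D4:**
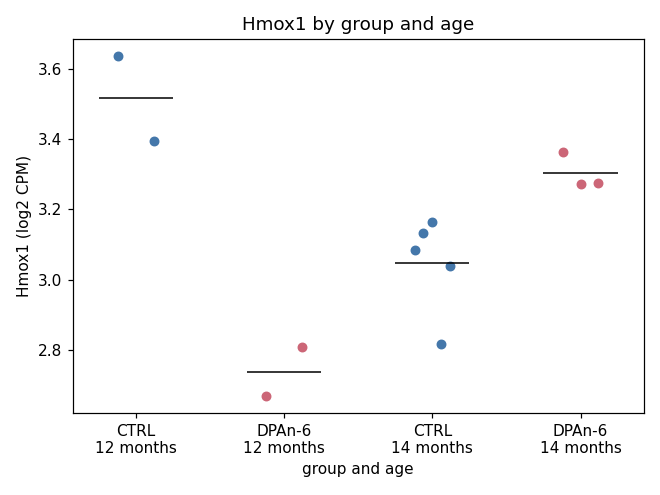
Hmox1 in each mouse by group and age. Points are mice in log2 CPM and lines are means; at 12 months the DPAn-6 mice (2.67 and 2.81) lie below both CTRL mice (3.64 and 3.40), and at 14 months all 3 lie above the 5 CTRL mice.

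Among the genes of glutathione supply, Slc7a11 (ENSMUSG00000027737; chromosome 3, 49892526 to 50443614), the cystine importer that brings in the limiting amino acid of glutathione, had the smallest p of the 41. Its CTRL values ran from 5.66 to 6.78 log2 CPM with a median of 5.95. The DPAn-6 mice had 5.68, 5.61, 5.18, 5.58 and 5.60. Of these, 4 lay below every CTRL mouse and the first lay just above the lowest. edgeR gave a log2 fold change of −0.59 (standard error 0.17, unadjusted p = 0.00326, edgeR adjusted p = 0.100, exact permutation p = 0.00631). CTRL replicate 3 held the highest value, and without it the difference was smaller, at −0.42, with a narrower spread (edgeR adjusted p = 0.0137). Slc7a11 also had an adjusted p below 0.05 by DESeq2 (0.0254) and after the dependence of each library on transcript length and GC was taken out (−0.43, edgeR adjusted p = 0.0267), an alternative chosen after the data were seen. With Ttr as covariate it was −0.46 (unadjusted p = 0.0656).

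The enzymes that build and recycle glutathione gave smaller estimates. Gclc, the catalytic subunit of the rate-limiting ligase, averaged 6.06 ± 0.16 log2 CPM among CTRL mice and 5.99 ± 0.03 among DPAn-6 mice (SD, n = 7 and n = 5), a log2 fold change of −0.10 (95% interval −0.28 to 0.08, edgeR adjusted p = 0.645). For Gclm, its modifier subunit, the log2 fold change was 0.07, for Gss (glutathione synthetase) 0.06 and for Gsr (glutathione reductase) −0.02. Without CTRL replicate 3 the estimates for Gclc, Gclm, Gss and Gsr were −0.03, 0.12, −0.02 and −0.03. Gsr had the smallest SD of the 41 genes in CTRL, 0.06 log2 CPM, and its 95% interval was −0.15 to 0.11. Exons of Gss overlap those of Acss2 on the other strand, and whether the counting used strand is not given in the sources used here; the 2 could share reads.

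Estimates for the 5 glutathione peroxidases ran from −0.73 to −0.01, and 1 of them had an unadjusted p below 0.05. Without TMM 4 of the 5 were below 0 (Gpx1 was 0.01), and without CTRL replicate 3 also 4 (Gpx3 was 0.16). Gpx8 (chromosome 13, 113042753 to 113046410), a peroxidase of the endoplasmic reticulum, ranged from 0.57 to 1.78 log2 CPM in CTRL with a median of 1.07. In DPAn-6 the values were 0.47, 0.13, 0.24, 0.28 and 0.96. Of these, 4 were below every CTRL mouse and the last was within the CTRL range. The log2 fold change was −0.73 (standard error 0.24, unadjusted p = 0.00808, edgeR adjusted p = 0.155, exact permutation p = 0.0177), from 18 to 53 counts per mouse. It was −0.63 without CTRL replicate 3 and −0.19 with Ttr as covariate (unadjusted p = 0.435). Ttr itself was 2.59 to 10.58 log2 CPM in CTRL and 0.87 to 3.88 in DPAn-6. The 2 mice highest in Gpx8, CTRL replicates 2 and 3, had 10.58 and 7.38. CTRL replicate 5 had 9.88 in Ttr but 1.09 in Gpx8, near the CTRL median of Gpx8. Whether the 2 genes are linked was not tested.

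Gpx4, the peroxidase that reduces lipid hydroperoxides within membranes and whose loss leads to ferroptosis, averaged 4.83 ± 0.28 log2 CPM among CTRL mice and 4.73 ± 0.14 among DPAn-6 mice (SD, n = 7 and n = 5). DPAn-6 differed from CTRL by a log2 fold change of −0.14 (95% interval −0.38 to 0.11, edgeR adjusted p = 0.662). CTRL replicate 3 stood at 4.19, and the other 6 CTRL mice lay within 4.89 to 4.98. Leaving it out gave a log2 fold change of −0.21 (unadjusted p = 0.00511, edgeR adjusted p = 0.0663), with 4 of 5 DPAn-6 mice below the other CTRL mice. Gpx1, the abundant cytosolic form, had a log2 fold change of −0.01 and Gpx7 of −0.05 (−0.06 and −0.12 without CTRL replicate 3). Gpx3, the secreted form, had the widest spread of the 41 genes, from 2.37 to 5.15 log2 CPM, and its estimate of −0.33 (95% interval −1.30 to 0.64) turned to 0.16 without CTRL replicate 3.

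Aifm2, which encodes FSP1, the ubiquinone reductase that protects membranes independently of glutathione, averaged 2.97 ± 0.36 log2 CPM among CTRL mice and 2.89 ± 0.18 among DPAn-6 mice (SD, n = 7 and n = 5). Its log2 fold change was −0.12 (95% interval −0.45 to 0.21, edgeR adjusted p = 0.790), and −0.20 without CTRL replicate 3 (unadjusted p = 0.140). Its exons overlap H2afy2 on the other strand.

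Of the 7 glutathione transferases, which couple glutathione to electrophiles, 6 had estimates below 0, where 51.3% of all genes did. Gstm5 (chromosome 3, 107895821 to 107898686) ran from 6.45 to 6.77 log2 CPM in CTRL, median 6.63, and had 6.46, 6.23, 6.58, 6.49 and 6.45 in DPAn-6. The second DPAn-6 mouse was below every CTRL mouse and the others were within the range of CTRL or level with its lowest mouse. edgeR gave a log2 fold change of −0.19 (standard error 0.07, unadjusted p = 0.0223, edgeR adjusted p = 0.245, exact permutation p = 0.0391). It was −0.21 without CTRL replicate 3 (exact permutation p = 0.0173) and −0.26 with Ttr as covariate (unadjusted p = 0.0158). Without DPAn-6 replicate 2 it was −0.13 (unadjusted p = 0.0904), and in the 14-month mice alone −0.21 (unadjusted p = 0.0584). An antisense gene, 4933431E20Rik, overlaps its exons and held 26201 counts over all mice beside 20420 for Gstm5.

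Gstt1 ranged from 2.90 to 3.59 log2 CPM in CTRL, median 3.36, and had 3.28, 2.90, 3.10, 3.02 and 3.20 in DPAn-6. The groups overlapped, and CTRL replicate 3 held the lowest CTRL value. The log2 fold change was −0.23 (unadjusted p = 0.0664, edgeR adjusted p = 0.385) and −0.28 without that mouse (unadjusted p = 0.0128, edgeR adjusted p = 0.109). Mgst3, a microsomal transferase that also reduces lipid hydroperoxides, averaged 5.85 ± 0.36 log2 CPM among CTRL mice and 5.74 ± 0.09 among DPAn-6 mice (SD, n = 7 and n = 5). Its log2 fold change was −0.16 (edgeR adjusted p = 0.627), and without CTRL replicate 3, which stood at 5.07, it was −0.26 (edgeR adjusted p = 0.0156, exact permutation p = 0.00649). With the length and GC dependence taken out and all 12 mice kept, it was −0.155 (unadjusted p = 0.124, edgeR adjusted p = 0.394). The remaining transferases Gsta4, Gstm1, Mgst1 and Gstp1 had log2 fold changes of −0.05, −0.08, −0.04 and 0.12, and of −0.07, −0.09, −0.09 and 0.02 without CTRL replicate 3. Members of these families are close in sequence, and reads that fit several of them were not counted.

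In the thioredoxin system, Txnip (chromosome 3, 96557957 to 96561883), the protein that binds and inhibits thioredoxin, ranged from 4.84 to 5.27 log2 CPM in CTRL with a median of 5.04. The DPAn-6 mice had 5.05, 4.75, 4.96, 4.69 and 4.52. Of these, 3 lay below every CTRL mouse. DPAn-6 differed from CTRL by a log2 fold change of −0.28 (standard error 0.11, unadjusted p = 0.0189, edgeR adjusted p = 0.228, exact permutation p = 0.0316), and −0.23 without CTRL replicate 3 (unadjusted p = 0.0225, exact permutation p = 0.0563). Its unadjusted p was 0.0565 without DPAn-6 replicate 4 and 0.0757 without DPAn-6 replicate 5, 0.0547 in the 14-month mice alone and 0.106 with Ttr as covariate.

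Txn1, the cytosolic thioredoxin that Txnip binds, had the opposite sign. It ran from 4.19 to 5.05 log2 CPM in CTRL, median 4.89, and had 5.15, 5.00, 4.97, 4.99 and 5.22 in DPAn-6. All 5 DPAn-6 mice lay above the CTRL median, and the lowest CTRL value was CTRL replicate 3. edgeR gave a log2 fold change of 0.21 (unadjusted p = 0.103, edgeR adjusted p = 0.461), and 0.13 without that mouse. For mitochondrial Txn2, the reductases Txnrd1 and Txnrd2 and sulfiredoxin (Srxn1) the log2 fold changes were 0.09, −0.05, 0.09 and 0.07, and those of Txnrd2 and Srxn1 were −0.02 and 0.01 without CTRL replicate 3.

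Peroxiredoxins reduce peroxides with electrons from thioredoxin. Prdx1 (chromosome 4, 116685544 to 116700822), the cytosolic form, ranged from 5.21 to 5.55 log2 CPM in CTRL with a median of 5.32. In DPAn-6 the values were 5.59, 5.62, 5.40, 5.66 and 5.73, of which 4 were above every CTRL mouse. On the log2 scale the fold change was 0.21 (standard error 0.08, unadjusted p = 0.0193, edgeR adjusted p = 0.230, exact permutation p = 0.0202), and 0.19 without CTRL replicate 3 (exact permutation p = 0.0325). It was 0.13 with Ttr as covariate (unadjusted p = 0.244), 0.18 with the length and GC dependence taken out (unadjusted p = 0.0584) and 0.18 without DPAn-6 replicate 5 (unadjusted p = 0.0504). Prdx2, Prdx4, Prdx5 and Prdx6 had log2 fold changes of 0.13, 0.06, 0.13 and 0.02 with 12 mice, and Prdx3 of −0.01. All 5 were within 0.07 of 0 without CTRL replicate 3.

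**Figure D5:**
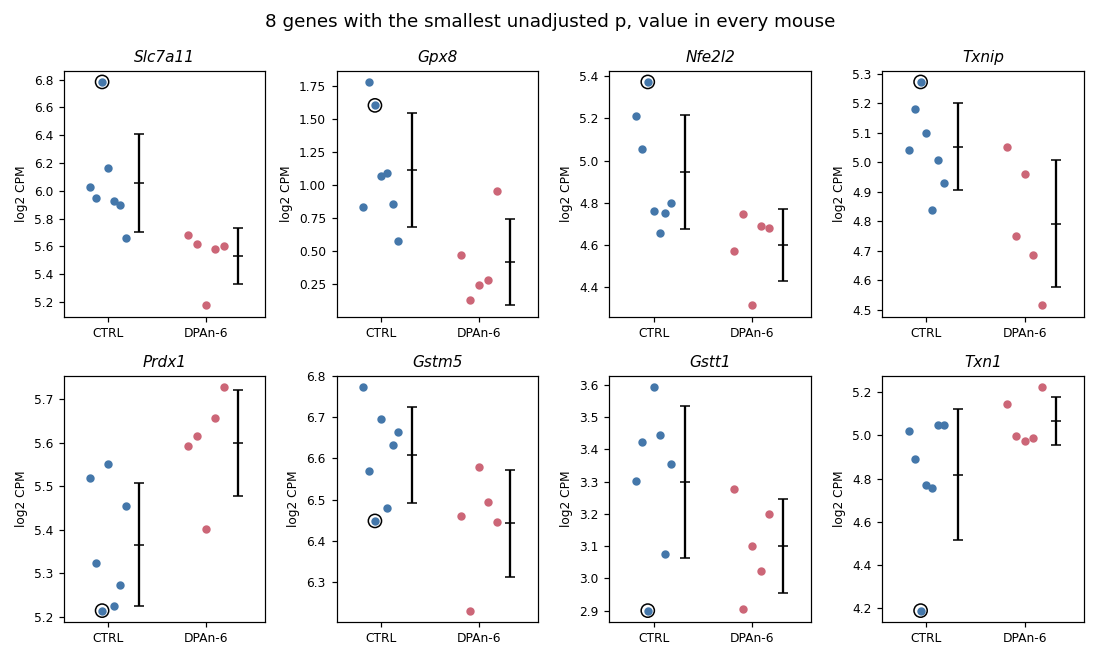
The 8 genes with the smallest unadjusted p. Points are mice in log2 CPM, bars to the right of each group are mean and SD (n = 7 CTRL, n = 5 DPAn-6), axes are cut to each gene's range, and circled points are CTRL replicate 3; in Slc7a11, Gpx8 and Prdx1, 4 of the 5 DPAn-6 mice lie outside the CTRL range.

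Catalase and the superoxide dismutases showed no difference with an unadjusted p below 0.05. Cat had a log2 fold change of 0.02 and Sod1, the cytosolic dismutase, of 0.04 (0.10 and 0.01 without CTRL replicate 3). Mitochondrial Sod2 had −0.15 (95% interval −0.36 to 0.06) and extracellular Sod3 −0.27 (−0.61 to 0.07), with all 5 DPAn-6 mice below the CTRL mean in both genes. CTRL replicate 3 was the highest mouse in both, and without it the log2 fold changes were −0.08 and −0.10.

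None of the genes of iron storage and uptake had an unadjusted p below 0.05. Fth1, the ferritin chain that oxidizes iron for storage, averaged 10.96 ± 0.14 log2 CPM among CTRL mice and 10.91 ± 0.10 among DPAn-6 mice (SD, n = 7 and n = 5), a log2 fold change of −0.08 (95% interval −0.23 to 0.08, edgeR adjusted p = 0.706). Tfrc, the transferrin receptor, averaged 6.55 ± 0.26 and 6.58 ± 0.18 log2 CPM in the same order (SD, n = 7 and n = 5), a log2 fold change of −0.01 (−0.27 to 0.25, edgeR adjusted p = 0.989), which was 0.02 without TMM and 0.04 without CTRL replicate 3. Ftl1, the ferritin light chain, averaged 4.08 ± 0.58 and 4.05 ± 0.15 log2 CPM in the same order (SD, n = 7 and n = 5), with a log2 fold change of −0.13 (−0.56 to 0.31, edgeR adjusted p = 0.844), which was −0.25 without CTRL replicate 3 (unadjusted p = 0.0511). Ftl1 had 3828 counts over all 12 mice. Ferritin genes have near-identical processed copies in the genome, and reads with several places were not counted, so the level of Ftl1 is uncertain.

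Beyond the 41 genes, 9 lists of further genes of these pathways held 193 genes, of which 172 were tested and 7 passed an edgeR adjusted p of 0.05 (4.07%, against 1.55% of all genes). The median log2 fold change of the 172 was −0.01, and 28 had an unadjusted p below 0.05 (16.3%, against 14.5% of all genes). The lists were chosen with earlier results of these data known, so these shares are not independent of that choice. The 7 were spread over 4 lists. Of these, 6 fell and 1 rose. The number called was 15 without CTRL replicate 3, where the share of all genes called also rose, from 1.55% to 6.10%. It was between 1 and 4 when any other mouse was left out. With Ttr as covariate none of the 7 was called (edgeR adjusted p of 0.0708 for Ncf1 and 0.259 to 0.792 for the other 6), and the single call was Aldh1a1.

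The largest of these changes was in a source of superoxide. Ncf1 (p47phox), the organizing subunit of the phagocyte NADPH oxidase, fell by 0.68 on the log2 scale (edgeR adjusted p = 0.00336), from 4.53 ± 0.18 log2 CPM (SD, n = 7) to 3.88 ± 0.11 (SD, n = 5), and the groups did not overlap. Xdh, xanthine dehydrogenase, fell by 0.64 (edgeR adjusted p = 0.0192), also without overlap. The NADPH oxidase list had 6 of 9 tested genes below 0 (51.3% of all genes were) and a median log2 fold change of −0.17. Cybb and Cyba, the membrane subunits, had −0.49 (unadjusted p = 0.116, −0.27 without CTRL replicate 3) and −0.38 (unadjusted p = 0.042, −0.46 and edgeR adjusted p = 0.0451 without it). Ncf1, Cybb and Cyba are expressed by microglia, whose markers were lower in 13 of 13 cases (864 to 1260 CPM summed in DPAn-6, 1250 to 1900 in CTRL). The part of this in the values of Ncf1 was not tested.

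In iron transport, Heph (hephaestin, a ferroxidase that helps export iron) fell by 0.48 (edgeR adjusted p = 0.0285, no overlap). Bmp6, the ligand that sets hepcidin expression in liver, fell by 0.67 (edgeR adjusted p = 0.0464), and its groups overlapped. Hamp, the hepcidin gene, had no counts in any mouse. The other 27 tested genes of that list did not pass, among them the exporter Slc40a1 (−0.06, edgeR adjusted p = 0.875, −0.11 without CTRL replicate 3) and transferrin (Trf, 0.30, edgeR adjusted p = 0.522, 0.20 without it). Of the Nrf2 partners and further Nrf2 targets, Ephx1 (microsomal epoxide hydrolase) fell by 0.37 (edgeR adjusted p = 0.0403) and Abcc4 (an exporter of conjugated anions) fell by 0.45 (edgeR adjusted p = 0.0442). In that list 13 of 20 were below 0, where 51.3% of all genes were. Of the further glutathione genes, Glrx2, the mitochondrial glutaredoxin, rose by 0.30 (edgeR adjusted p = 0.0400), from 5.37 ± 0.11 log2 CPM (SD, n = 7) to 5.69 ± 0.04 (SD, n = 5), without overlap. In the same list Slc1a1 (0.18, edgeR adjusted p = 0.177) and Esd (0.31, edgeR adjusted p = 0.165) were higher in DPAn-6 without overlap, but not called. Over all genes, 3.22% had no overlap. Slc3a2, the heavy chain that pairs with Slc7a11, had a log2 fold change of 0.05 (edgeR adjusted p = 0.839, 0.01 without CTRL replicate 3).

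The other 5 lists had no gene with an edgeR adjusted p below 0.05. An unadjusted p below 0.05 was reached by 1 of 13 genes of NADPH supply, 5 of 22 of ferroptosis and lipid peroxidation, 2 of 17 of aldehyde clearance, 2 of 25 selenoprotein genes and 0 of 16 further thioredoxin genes, against 14.5% of all genes. Of the 5 in the ferroptosis list, 4 were higher in DPAn-6 and 1, Mboat2, was lower. Those of the other lists were lower. The smallest p of each list belonged to Idh2 (−0.25, edgeR adjusted p = 0.344), Mboat2 (−0.21, edgeR adjusted p = 0.105), Aldh1a1 (−0.85, edgeR adjusted p = 0.0533), Selenop (−0.36, edgeR adjusted p = 0.235) and Nxn (−0.30, edgeR adjusted p = 0.444). The groups did not overlap in Mboat2 and Selenop. Without CTRL replicate 3, Idh2 (−0.33, edgeR adjusted p = 0.0108), Nadk of NADPH supply (−0.21, 0.0232), Mboat2 (−0.22, 0.0270), Aldh1a1 (−0.88, 0.0156) and Selenop (−0.21, 0.0409) were called. Aldh1a1, a retinaldehyde dehydrogenase, was also called with Ttr as covariate (edgeR adjusted p = 0.00245) and with the length and GC dependence taken out (edgeR adjusted p = 0.0283), as was Idh2 in the latter (edgeR adjusted p = 0.0392). Cyb5r1 of the ferroptosis list, higher in DPAn-6 (0.28 in the main fit), was also called with that dependence taken out (edgeR adjusted p = 0.0479). The next in each list were Pgd (−0.15), Vdac2 (0.22), Akr1b8 (−0.53), Selenbp1 (−0.46) and Sesn3 (−0.19, −0.10 without CTRL replicate 3). Acsl4, which loads polyunsaturated fatty acids into membrane lipids and so sets the supply for peroxidation, had a log2 fold change of −0.03 (edgeR adjusted p = 0.966) and of 0.12 without CTRL replicate 3.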

How the data were processed

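The authors isolated total RNA from the cortex of 12 E4FAD mice, selected poly(A) RNA, prepared KAPA mRNA libraries and aligned the reads to GRCm38 with STAR (2.5.3a in the submitters' processing notes), whose GeneCounts mode counts reads with a single place in the genome. They deposited raw read counts per gene without normalization. The strand setting is not given in the sources used here. The 41 genes, the further lists and the tests were chosen with earlier results of these data known.

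From the deposited counts, log2 CPM (pseudocount 0.5, total count on genes) and TPM (exon bases of GENCODE M21, which matched 50339 of 50563 identifiers) were computed. All genes passing filterByExpr were compared by edgeR 4.0.16 in R 4.3.3 (TMM, glmQLFit, glmQLFTest, no covariate, Benjamini-Hochberg adjustment over 15688 genes). The methods of the study name limma-voom, which was run as an alternative. Mean log2 CPM of a gene was in addition tested by exact permutation (two-sided, 792 splits), with 0.00126 as the smallest p possible. Values in every mouse are given for the 8 genes with the smallest unadjusted p and for any gene passing the adjusted threshold or without overlap, and levels and tests for Hmox1, Nqo1, Nfe2l2, Keap1, Slc7a11, Gclc, Gpx4, Aifm2, Fth1, Ftl1 and Tfrc. In the further lists, genes with an adjusted p below 0.05 are named, otherwise the 2 with the smallest p. Gpx3, Mgst3, Cybb, Cyba, Trf, Slc40a1, Slc3a2 and Acsl4 and the other genes with values fall outside this rule and were chosen after their values were seen. Alternatives were DESeq2 1.42.0, limma-voom 3.58.1, no TMM, other filters, age, Xist or Ttr as covariate, the 14-month mice alone, a replicate block and leaving out each mouse. The scripts were tested on simulated data. Sequences are from RefSeq promoters (GRCm38.p6) and from GENCODE M21 transcripts. Python 3.11.15, numpy 2.4.6 and pandas 2.3.3 were used.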

Additional observations from a re-analysis of the deposited data

Results flagged for a closer look

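In 82 groups checked (41 genes in CTRL and in DPAn-6), 14 held a mouse far from the others of its group by Dixon's ratio, where chance gives about 1 in 20. CTRL replicate 3 was that mouse in 13. It was the lowest CTRL mouse in 11 of them, with log2 CPM of 5.68 for Keap1, 2.68 for Gss, 4.19 for Gpx4, 2.73 for Gstp1, 5.07 for Mgst3 and 4.19 for Txn1. It was also lowest in Txnrd2 at 2.59, Srxn1 at 5.91, Prdx2 at 5.47, Prdx3 at 4.76 and Prdx5 at 6.01 log2 CPM. It was the highest CTRL mouse in 2, Gclc at 6.38 and Sod3 at 5.00 log2 CPM. The other case was DPAn-6 replicate 3 in Slc7a11, at 5.18 log2 CPM, where the nearest DPAn-6 mouse had 5.58. Without DPAn-6 replicate 3 the log2 fold change of Slc7a11 was −0.51 (edgeR across all genes, unadjusted p = 0.0132).

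Hmox1 had opposite differences between the groups at 12 and 14 months without overlap, with a difference of −1.01 between the ages on the log2 scale (unadjusted p = 0.000322, edgeR adjusted p = 0.376 over all genes). The 12-month comparison rests on 2 mice per group.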

How the results depend on the processing

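The count of 0 genes with an adjusted p below 0.05 (edgeR, 6 at an unadjusted p below 0.05) became 1 by DESeq2 and 1 with length and GC trends taken out, Slc7a11 in both, and ranged from 0 to 2 when each mouse was left out, 2 being the value without CTRL replicate 3. It was 0 by limma-voom and in the other alternatives, the replicate block among them. The count of 6 was 1 with Ttr as covariate, 5 with the replicate block and 4 to 9 with each mouse left out, and the exact permutation count of 6 was 4 to 8. Ttr varied with the group (log2 fold change −6.01), so this fit cannot fully separate Ttr from the group. With Ttr as covariate the log2 fold change of Gpx8 went from −0.73 to −0.19 and that of Prdx1 from 0.21 to 0.13. Slc7a11 went from −0.59 to −0.46, Nfe2l2 from −0.39 to −0.34 and Gstm5 from −0.19 to −0.26. For Txnip it went from −0.28 to −0.25 while the unadjusted p rose from 0.0189 to 0.106. The count of 7 in the further lists was 4 without TMM, 4 without a filter, 1 with Ttr as covariate, 0 in the 14-month mice, 2 with the replicate block and 1 to 15 with each mouse left out. Of all genes 1.55% were called in the main fit and 6.10% without CTRL replicate 3, the fit that gave 15. For the other alternatives this share is not given here. Over 943 combinations of gene and alternative, no difference with an unadjusted p below 0.05 reversed, 15 lost and 8 gained an unadjusted p below 0.05, and 65 changed the sign of an estimate whose unadjusted p was above 0.05 in both fits. The cause was not tested, beyond the smaller number of mice in the 14-month and left-out fits. Replicate numbers did not pair the mice: deviations of same-numbered mice correlated at −0.12 to 0.23, and 1 of 5 matched its own number best. With 5 DPAn-6 mice and 18 to 53 counts, Gpx8 is the least precisely counted of the 6.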
